A study of Mus musculus with 7 samples.

Results

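The genes described here encode the machinery with which the endoplasmic reticulum (ER) takes in, folds and sends on secreted proteins. They were chosen by name: the Pdia, Sec61, Sec62, Sec63, Sec11, Spcs and Tmed genes, Ssr1 to Ssr4, and a set of single genes that includes Xbp1, Hspa5, Hsp90b1, Calr, Canx and the ER oxidases Ero1l and Ero1lb. In all, 46 of the 18907 features in the tables met this rule, and each of the 46 had UMIs in the cells kept. They were described in gastric gland cells of C57BL/6 mice, labelled wild type, with no age, treatment or animal given. The data comprised 4 plates from the corpus, the acid-producing body of the stomach, and 3 plates from the pylorus, its outlet. A sorter placed 1 living, DAPI-negative cell into each well, and the CEL-seq2 chemistry counted unique molecular identifiers (UMIs), 1 per captured transcript end, so that levels of different genes need no scaling by length. The 2235 wells with 1000 or more UMIs besides spike-ins are described. No label ties a plate to an animal, so the p-values below rest on plates, whose spread may in part be technical. Those for a region measure the spread between plates. Those between classes, from fits with the plate as a term, measure how class differences spread over plates. The tests of region differences between classes do so too.

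Secreted and membrane proteins enter the ER through the Sec61 channel while they are being made. Signal peptidase trims them, oligosaccharyltransferase attaches sugars, chaperones and protein disulfide isomerases fold them, and p24 proteins (the Tmed genes) take part in loading cargo into vesicles bound for the Golgi. When folding capacity falls short, the unfolded protein response raises many of these genes, in part through the transcription factor XBP1. In the stomach the machinery is best known from chief cells, which make pepsinogens and other digestive enzymes and are packed with rough ER. Neck cells and pit cells secrete mucus, endocrine cells secrete peptide hormones or amines, and parietal cells secrete acid.

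The ER stress response element (ERSE) is a promoter motif through which stress sensors act on ER chaperone genes. It reads CCAAT, then any 9 bases, then CCACG. In RefSeq promoter windows of 300 bases (250 before to 50 after each start, GRCm38.p6), 40 of the 46 genes had an entry, Ero1l and Ero1lb by a synonym on the same chromosome. Sec11c, Sec61a1, Spcs3, Ssr2, Tmed2 and Tmed7 had none. On either strand, an ERSE was found for 8 of the 40 genes (20%), against 39 of all 32851 promoter windows (0.119%). A related motif, ERSE-II (ATTGG, any base, CCACG), was found for Dnajb11 alone of the 40, just after its start, against 0.0365% of all windows. The letters TGACGTG, the core of another element called UPRE, occurred for Hspa5 and Txndc5 (5% of the 40, against 2.01% of all windows). None of these matches overlapped one of another motif. Such a match is a description of letters, not a proven site. For these 8 genes, 120 bases around the match (144 for Hsp90b1, to hold both of its matches) are shown 5′ to 3′ on the strand of the gene, with both ends of the motif in capitals. A match on the other strand reads CGTGG, 9 bases, ATTGG.

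Hspa5, chr2:34771970-34772089, plus strand: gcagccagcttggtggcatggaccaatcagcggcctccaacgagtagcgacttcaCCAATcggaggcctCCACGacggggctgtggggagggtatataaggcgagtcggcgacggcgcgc

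Hsp90b1, chr10:86705523-86705666, minus strand: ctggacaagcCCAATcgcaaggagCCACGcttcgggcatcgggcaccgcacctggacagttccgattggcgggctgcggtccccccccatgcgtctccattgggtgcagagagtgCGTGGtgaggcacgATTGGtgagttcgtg

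Calr, chr8:84846984-84847103, minus strand: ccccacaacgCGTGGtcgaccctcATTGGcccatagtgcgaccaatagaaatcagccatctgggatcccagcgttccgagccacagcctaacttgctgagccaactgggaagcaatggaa

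Canx, chr11:50325709-50325828, minus strand: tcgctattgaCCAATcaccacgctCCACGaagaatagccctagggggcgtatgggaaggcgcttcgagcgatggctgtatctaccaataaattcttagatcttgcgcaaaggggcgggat

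Creld2, chr15:88819510-88819629, plus strand: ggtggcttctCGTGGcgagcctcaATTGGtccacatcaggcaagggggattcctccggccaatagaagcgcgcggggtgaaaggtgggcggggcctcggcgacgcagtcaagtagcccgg

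Dnajc3, chr14:118937812-118937931, plus strand: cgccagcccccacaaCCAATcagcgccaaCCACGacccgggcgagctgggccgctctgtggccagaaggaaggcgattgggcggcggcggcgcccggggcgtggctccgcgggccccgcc

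Pdia6, chr12:17266469-17266588, plus strand: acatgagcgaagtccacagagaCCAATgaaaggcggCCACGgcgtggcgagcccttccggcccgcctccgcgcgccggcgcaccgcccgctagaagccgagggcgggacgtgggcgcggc

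Ero1lb, chr13:12565672-12565791, plus strand: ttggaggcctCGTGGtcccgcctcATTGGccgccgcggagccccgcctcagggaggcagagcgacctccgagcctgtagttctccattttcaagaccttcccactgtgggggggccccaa

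Hsp90b1 held 2 matches and the other 7 genes held 1 each. Beside them stand 3 promoters without either ERSE form. Pdia2 and Tmed6 had the largest differences between cell classes of all 46 genes. Ero1l is the paralogue of Ero1lb that differed in the opposite direction in chief-like cells, as described below. The 120 bases before each start are given.

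Pdia2, chr17:26199088-26199207, minus strand: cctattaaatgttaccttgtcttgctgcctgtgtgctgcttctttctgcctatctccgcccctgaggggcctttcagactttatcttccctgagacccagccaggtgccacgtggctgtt

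Tmed6, chr8:107065645-107065764, minus strand: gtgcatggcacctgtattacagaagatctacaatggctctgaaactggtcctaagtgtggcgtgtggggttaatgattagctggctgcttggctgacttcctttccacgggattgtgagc

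Ero1l, chr14:45318573-45318692, minus strand: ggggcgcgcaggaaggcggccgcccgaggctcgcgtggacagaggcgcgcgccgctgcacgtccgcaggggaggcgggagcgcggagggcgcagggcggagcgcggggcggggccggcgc

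Plates differed in depth and spike-in share. The median depth per kept cell ran from 6898.5 to 25544.5 UMIs. The spike-in share was 6.55% for pylorus replicate 1, 4.27% for corpus replicate 1 and at most 0.426% for the remaining 5 plates. Every plate carries the same well barcodes by design, so shared well numbers say nothing about shared cells. Cells were clustered without the 46 genes and without mitochondrial genes, and clusters were named from marker lists, giving chief-like (283 cells), neck-like (495), pit-like (364), endocrine-like (333), parietal-like (139), proliferating-like (211), immune-like (136) and tuft-like (50) cells. Of the immune-like cells, 115 were in a cluster led by the mast cell genes Mcpt2, Tpsb2 and Cpa3. Of the endocrine-like cells, 244 were in cluster 12, led by Cel, Gc and Chga, with Hdc and Slc18a2 also among its leading genes. A cluster of 224 cells led by Lgals2 and Dpcr1 matched no list and stayed unnamed. It took 16.3% and 16.8% of the kept cells on corpus replicates 3 and 4 and 13.2% and 14.9% on pylorus replicates 2 and 3, against 0.358% to 1.6% on the other 3 plates. The chief-like, neck-like and pit-like classes each joined clusters that split by plate. Chief-like cluster 11 held 5 and 55 cells of corpus replicates 1 and 2 and 34 of pylorus replicate 1, while chief-like cluster 14 held 36 and 25 cells of corpus replicates 3 and 4 and 59 and 61 of pylorus replicates 2 and 3. The latter 4 plates are called the similar plates below. Endocrine-like cells were uneven too: cluster 5, with a median depth of 1802 UMIs, held 22 of 32 on corpus replicate 1. It also held 22 of 103 on corpus replicate 2 and 15 of 32 on pylorus replicate 1, but only 3 to 7 cells of each similar plate. The class comparisons introduced below were also fitted on the similar plates alone, with 45 of the 46 genes tested. There, 37 genes were higher and 2 lower in chief-like cells, and 21 higher and 2 lower in neck-like cells. Splits were 7 and 14 in pit-like, 9 and 13 in endocrine-like and 2 and 34 in parietal-like cells. They were 6 and 9 in proliferating-like and 2 and 37 in immune-like cells. Among all genes, those called in either direction numbered 2893 in chief-like, 2567 in neck-like, 4267 in pit-like and 5340 in endocrine-like cells. In parietal-like, proliferating-like and immune-like cells they numbered 4733, 4027 and 6697. Without a share over all genes, these splits alone do not set the 45 genes apart from the rest. Median log2 differences follow, with those of all genes in brackets. They were 1.15 (-0.04) in chief-like, 0.338 (0.02) in neck-like, -0.03 (-0.03) in pit-like and -0.01 (-0.03) in endocrine-like cells. In parietal-like, proliferating-like and immune-like cells they were -0.715 (-0.08), 0.08 (0.02) and -0.93 (-0.37). A class entered a comparison only from plates with at least 10 of its cells, which left out the tuft-like cells.

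Transcripts of the 46 genes took the largest share of UMIs in chief-like cells and the smallest in parietal-like cells. The share was 1.46% ± 0.284 (SD, n = 6 plates) in chief-like, 1.05% ± 0.146 (n = 7) in neck-like, 0.969% ± 0.143 (n = 7) in endocrine-like and 0.853% ± 0.11 (n = 6) in proliferating-like cells. It was 0.715% ± 0.168 (n = 7) in pit-like, 0.58% ± 0.0284 (n = 4) in immune-like and 0.418% ± 0.0907 (n = 4) in parietal-like cells. In this order, the plates of each class overlapped those of the next, except between immune-like and parietal-like cells. Chief-like plates ranged from 1.17% to 1.98% and neck-like plates from 0.823% to 1.25%, while no parietal-like plate (0.332% to 0.518%) reached the lowest immune-like plate (0.547%). Without mitochondrial transcripts in the total, the parietal-like share was 0.629%, against 0.635% in immune-like cells. Single cells varied widely within a class. Chief-like cells at the 25th and 75th percentile lay at 1.04% and 1.67%, around a median of 1.33%, and neck-like cells at 0.805% and 1.21%. After thinning every cell to 1000 UMIs the chief-like median was 1.3% and the neck-like median 1%, with unthinned depths of 29169 and 17071 UMIs at the median.

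**Figure D1:**
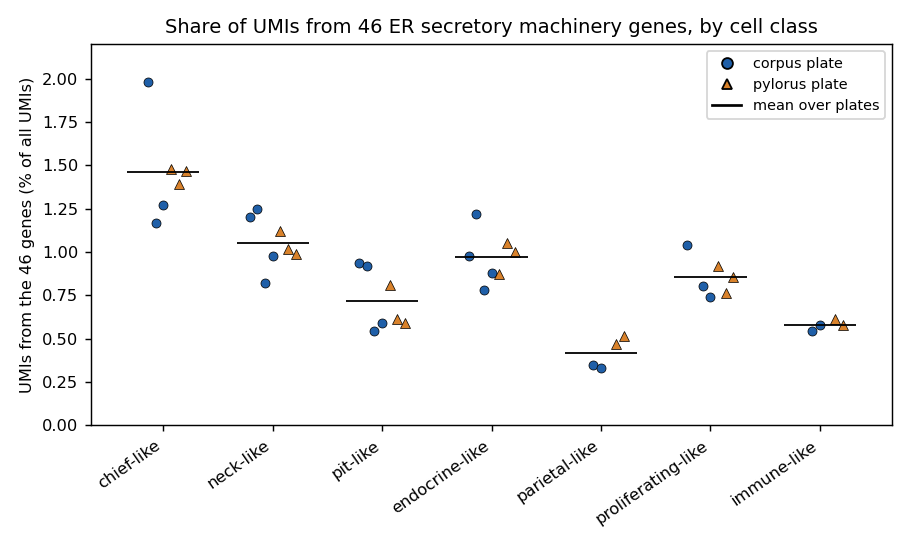
Share of all UMIs that came from the 46 genes, in percent, for 7 cell classes, with 1 point per plate (circles corpus, triangles pylorus) and a line at the mean over plates. Chief-like plates lie between 1.17% and 1.98%, and parietal-like plates between 0.332% and 0.518%.

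The make-up of the module is given over the cells of each class pooled from all plates, with no test. Pdia2, a disulfide isomerase known from the exocrine pancreas, gave 13.2% of all module UMIs in chief-like cells, the largest part of any of the 46. That place rested on corpus replicate 2 and pylorus replicate 1: on the 4 similar plates Xbp1 or Hspa5 was above Pdia2 in CPM. Pdia2 gave 1.95% in neck-like cells and 0.397% in pit-like cells. Hspa5, the ER chaperone BiP, gave 10.3% in neck-like, 8.23% in pit-like, 8.95% in endocrine-like, 10.3% in proliferating-like and 7.8% in immune-like cells, the largest pooled part in each. By plate it led in all proliferating-like sums, while Xbp1, Hsp90b1 or Calr was above it on some plates of the other 4 classes. In parietal-like cells Sec62, an accessory of the Sec61 channel, gave 9.61%, the largest pooled part, and led on both corpus plates but not on the pylorus plates, where Xbp1 and Hspa5 were above it.

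UMIs were added up per class and plate, brought to CPM (counts scaled to a common library total) with trimmed-mean (TMM) factors, and fitted in limma on log2(CPM + 2) with the plate as a term, so each difference below is on that scale and is smaller than the true ratio for low genes. The threshold for passing was an adjusted p (Benjamini-Hochberg) of 0.05 over all 10853 genes tested, and all 46 members were among these. Against the mean of the other 6 classes, 36 of the 46 genes were higher in chief-like cells and 1 was lower, where 17.2% of all genes were higher and 15.4% lower. The median log2 difference was 1.15 over the 46 genes and -0.03 over all genes. Chief-like cells had the highest mean level of all 7 classes for 34 of the 46 genes, and for 21 of these no plate of another class reached the lowest chief-like plate. The genes that passed as higher comprised 5 of 6 translocation channel genes, 4 of 4 translocon-associated genes, 4 of 5 signal peptidase genes, 3 of 3 oligosaccharyltransferase genes, 9 of 9 chaperone genes, 4 of 8 disulfide enzyme genes and 6 of 10 p24 genes, besides Xbp1. Scaling mattered to these counts. With scaling to library size alone, the median log2 difference of all genes was -0.59 in this comparison, and 26 genes were higher and 9 lower. Over all genes, 6285 then passed in either direction, in place of 3536. Under that scaling Calr (-0.04), Canx (-0.38), Rpn1 (below 0 by less than the printed digits), Ssr1 (-0.25) and Tmed4 (-0.15) turned from higher to lower, of which Canx passed the test. Chief cell marker transcripts averaged 309683 CPM of all UMIs in chief-like cells, against 171218 CPM in neck-like cells.

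**Figure D2:**
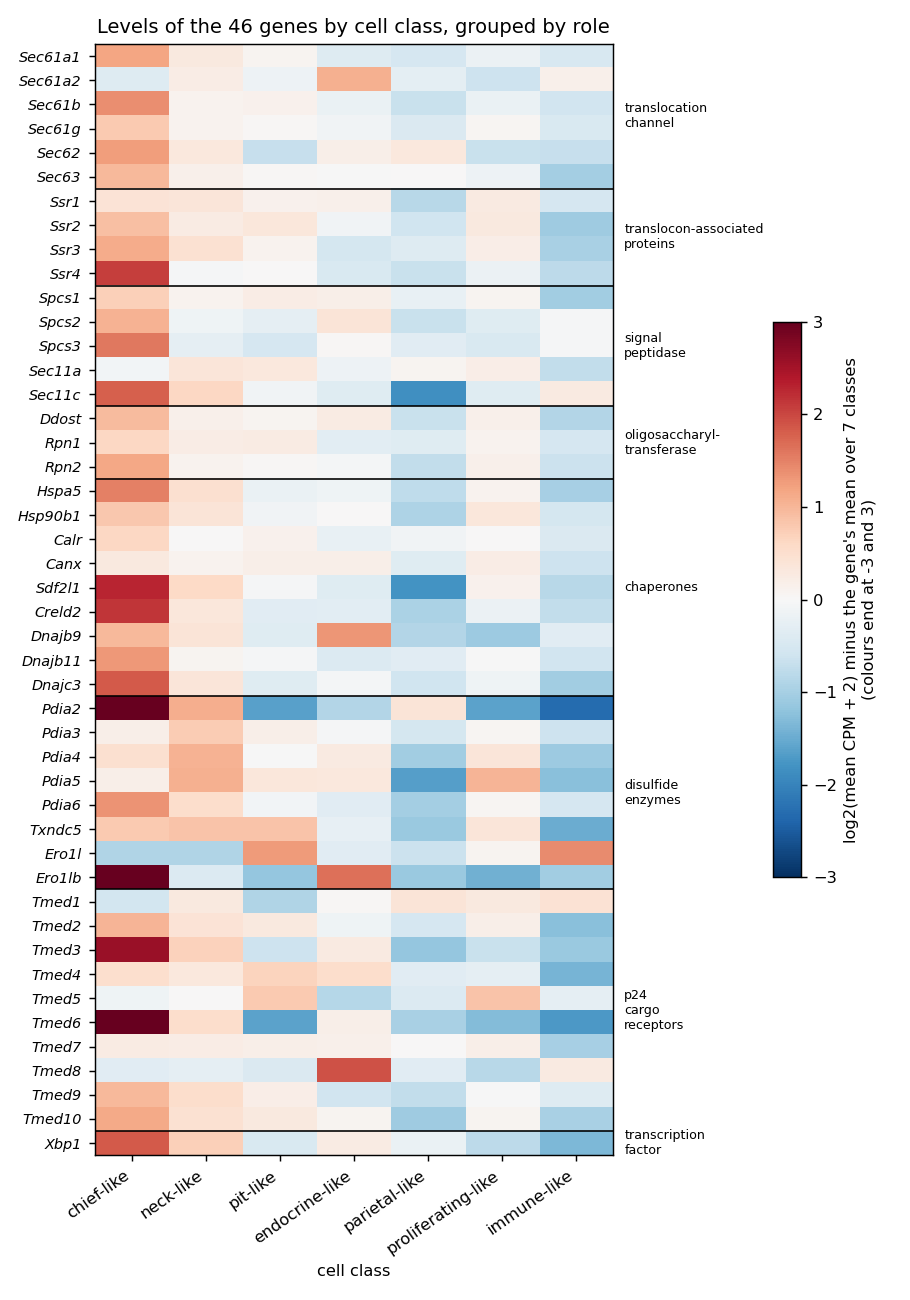
Level of each of the 46 genes (rows, grouped by role) in 7 cell classes (columns), as log2 of mean CPM + 2 minus the gene's mean over the classes, with colours ending at -3 and 3. Most rows are reddest in chief-like cells, while Dnajb9, Sec61a2 and Tmed8 peak in endocrine-like cells and Ero1l in immune-like and pit-like cells.

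Xbp1, the transcription factor that drives expansion of the secretory pathway, was among the most abundant members. It was at 1927 CPM ± 291 (SD, n = 6) in chief-like cells, with plates from 1549 to 2409 around a median of 1899. Neck-like cells followed with 889 CPM ± 176 (n = 7), then endocrine-like cells with 636 ± 116 (n = 7). The lowest were proliferating-like cells with 309 ± 14.7 (n = 6) and immune-like cells with 211 ± 25.7 (n = 4). No chief-like plate overlapped any plate of another class. The log2 difference between chief-like and other classes was 2.09 (SE 0.09, adjusted p = 1.758e-21). The counts do not separate the spliced form of Xbp1, which encodes the active factor, from the unspliced one.

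At the membrane channel, Sec61b, a small subunit, was at 449 CPM ± 58.8 (n = 6) in chief-like cells, from 361 to 524 CPM, and at 106 to 185 CPM on average in the 6 other classes. Its log2 difference was 1.66 (SE 0.10, adjusted p = 1.218e-16). Sec61a1, the pore-forming subunit, was at 244 CPM ± 43.7 (n = 6) in chief-like cells, from 200.2 to 326 CPM, and averaged 129 CPM in neck-like cells (chief-like difference 1.35, SE 0.10, adjusted p = 7.816e-14). Sec62, which takes part in importing small proteins, was at 934 CPM ± 70 (n = 6) in chief-like cells and 482 ± 52.9 (n = 4) in parietal-like cells, with a chief-like difference of 1.49. Sec61a2, the paralogue of Sec61a1, was far less abundant than Sec61a1 and had another pattern, with 24.7 CPM ± 15.2 (n = 7) in endocrine-like cells and 6.28 to 13 CPM in the other classes. The endocrine-like difference of Sec61a2 was 1.16 (SE 0.28, adjusted p = 0.0004943), and its endocrine-like plates, from 11.3 to 53.9 CPM, overlapped those of other classes. Over the 4 similar plates alone that difference was 0.63 with an adjusted p of 0.0535 in limma.

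Of the translocon-associated proteins, which sit beside the channel, Ssr4 had the largest difference. Ssr4 was at 772 CPM ± 154 (n = 6) in chief-like cells, from 557 to 1031 CPM, and at 104 to 183 CPM on average elsewhere. Its log2 difference was 2.39 (SE 0.11, adjusted p = 1.097e-20), with no overlap between chief-like plates and others. Ssr2 differed by 1.06, Ssr3 by 1.35 and Ssr1 by 0.45, all of which passed, although Ssr1 was at -0.25 with library size scaling.

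Signal peptidase has a pair of alternative catalytic subunits, Sec11a and Sec11c, whose levels were distributed differently. Sec11c was at 524 CPM ± 122 (n = 6) in chief-like, 231 ± 69.7 (n = 7) in neck-like, 180 ± 43.1 (n = 4) in immune-like and 40.1 ± 3.56 (n = 4) in parietal-like cells. Its log2 difference was 2.03 (SE 0.11, adjusted p = 1.189e-18) in chief-like and -1.96 in parietal-like cells, both of which passed. Sec11a varied far less, with class means from 33.4 to 74.3 CPM and a chief-like difference of -0.11 that did not pass. The non-catalytic subunits Spcs1, Spcs2 and Spcs3 were each higher in chief-like cells, by 0.83, 1.23 and 1.80. Spcs2 was at 327 CPM ± 33.3 (n = 6), from 280.4 to 379 CPM, and its chief-like plates overlapped none of another class.

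In oligosaccharyltransferase, Ddost was at 216 CPM ± 30.7 (n = 6) in chief-like cells, from 183 to 255 CPM, against 58.9 to 132 CPM on average in the other classes (log2 difference 1.09, SE 0.11, adjusted p = 8.751e-11). Rpn2 differed by 1.33 and Rpn1 by 0.70, the latter turning under library size scaling as given above.

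Among chaperones, Hspa5 was at 2023 CPM ± 480 (n = 6) in chief-like cells, with plates from 1437 to 2700 around a median of 1922, and at 1001 ± 55.3 (n = 7) in neck-like cells. Its lowest class was immune-like, with 357 CPM ± 11.1 (n = 4). The chief-like difference was 1.74 (SE 0.12, adjusted p = 9.510e-15). Creld2, which binds misfolded proteins under ER stress, was at 253 CPM ± 86.9 (n = 6), from 153 to 349 CPM, against 27.8 to 70.8 CPM on average elsewhere. Its difference was 2.53 (SE 0.19, adjusted p = 6.253e-14). Dnajc3, a cofactor of BiP, was at 687 CPM ± 178 (n = 6), from 499.5 to 996 CPM, and no plate of another class came above 282 CPM (difference 2.09, SE 0.12, adjusted p = 2.043e-17). Sdf2l1, a partner of BiP, differed by 2.61 (SE 0.32, adjusted p = 2.381e-08) at lower levels. Its chief-like plates spanned 31.8 to 152 CPM and overlapped the highest neck-like plate (47.1 CPM). The lectin chaperones Calr and Canx, which bind glycoproteins, were the most even of the 46 genes across classes: the highest class mean was 2.06 times the lowest for Calr and 1.88 times for Canx, and both turned from higher to lower in chief-like cells under library size scaling. Hsp90b1 (GRP94) differed by 0.89, with 861 CPM ± 225 (n = 6) in chief-like and 649 ± 119 (n = 7) in neck-like cells, whose plates overlapped. With library size scaling the difference of Hsp90b1 was 0.18 and did not pass (adjusted p = 0.238 in limma). The 8 genes with an ERSE in their promoters were all higher in chief-like cells, with a median difference of 1.63 and a range from 0.33 (Canx) to 4.01 (Ero1lb), as were 22 of the 31 genes with neither ERSE form, with a median of 1.09 and a range from -0.96 (Ero1l) to 5.65 (Tmed6). These ranges overlap, Calr and Canx turned under library size scaling as given above, and no test was made.

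**Figure D3:**
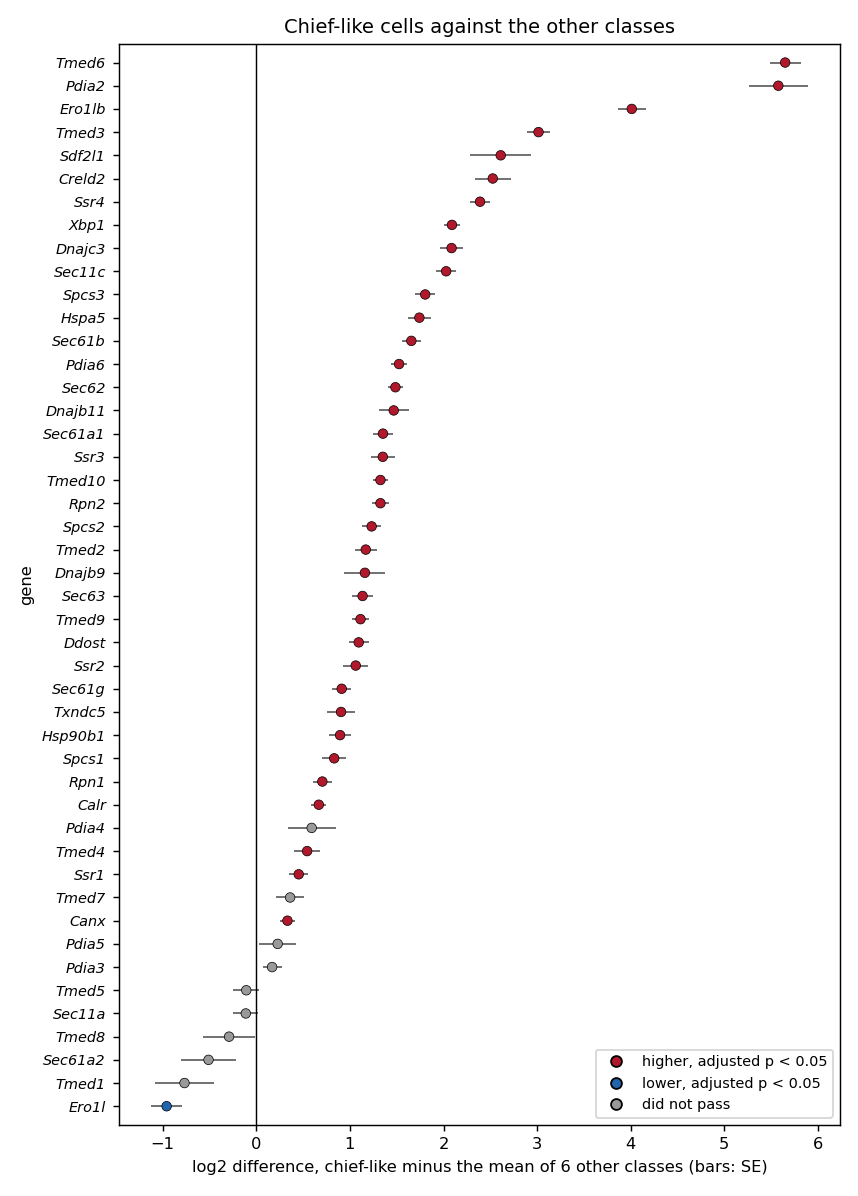
Log2 difference between chief-like cells and the mean of the 6 other classes (x axis, bars are SE) for each of the 46 genes (y axis), coloured by whether the gene passed at an adjusted p under 0.05 in limma. The points run from -0.96 for Ero1l to 5.65 for Tmed6, and Calr, Canx, Rpn1, Ssr1 and Tmed4, all above 0 here, lie below 0 with library size scaling.

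The disulfide enzymes included the sharpest contrasts between paralogues. Pdia2 was at 1524 and 1621 CPM on corpus replicates 3 and 4 and at 1709 and 1717 CPM on pylorus replicates 2 and 3 in chief-like cells, but at 6181 CPM on corpus replicate 2 and 5728 CPM on pylorus replicate 1. The high plates are those whose chief-like cells fell mostly into cluster 11, and they came from both regions. In neck-like cells Pdia2 was at 209 CPM ± 124 (n = 7), in parietal-like cells at 129 ± 35.7 (n = 4) and in immune-like cells at 18 ± 13 (n = 4). The chief-like difference was 5.58 (SE 0.31, adjusted p = 6.229e-18), or 5.50 over the 4 similar plates alone, and no plate of another class came above 383 CPM. Parietal-like cells were above the mean of the other classes on the log scale (1.20, SE 0.38, adjusted p = 0.009873), although the chief-like and neck-like means exceeded theirs. That call was lost with library size scaling (0.88, adjusted p = 0.0641) and without corpus replicate 4 (1.16, adjusted p = 0.0576). Pgc, the pepsinogen transcript of chief and neck cells, was at 48287 CPM of all UMIs in parietal-like and 81423 in immune-like cells, against 137833 in chief-like and 151041 in neck-like cells. The part of such RNA in the Pdia2 values outside chief-like cells was not tested.

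The ER oxidases, which pass oxidising equivalents to the disulfide isomerases, differed in opposite directions in chief-like and pit-like cells, while both were lower in neck-like cells. Ero1lb was at 461 CPM ± 90.7 (n = 6) in chief-like cells, with plates from 341 to 606 CPM, and at 128 ± 44.6 (n = 7) in endocrine-like cells, with plates from 44.9 to 169 CPM. In the 5 other classes compared it averaged 13.3 to 29.1 CPM. Its level in tuft-like cells, which were not in this comparison, is given at the end. The chief-like difference was 4.01 (SE 0.15, adjusted p = 2.064e-23) and the endocrine-like difference 1.92 (SE 0.14, adjusted p = 3.351e-15). Ero1l was at 116 CPM ± 29.2 (n = 7) in pit-like cells, from 62.5 to 146 CPM, and at 128 ± 12.9 (n = 4) in immune-like cells, from 114 to 141 CPM, and these 2 classes overlapped. It averaged 24.2 CPM in chief-like and 24.3 CPM in neck-like cells, and no plate of either came above 33.3 CPM. Its difference was 1.58 (SE 0.15, adjusted p = 3.398e-11) in pit-like, 1.52 (SE 0.19, adjusted p = 1.105e-08) in immune-like and -0.96 (SE 0.16, adjusted p = 1.033e-05) in chief-like cells, where Ero1l was the only one of the 46 genes to pass as lower. Ero1lb has an ERSE in its promoter window, shown above, and Ero1l has none.

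**Figure D4:**
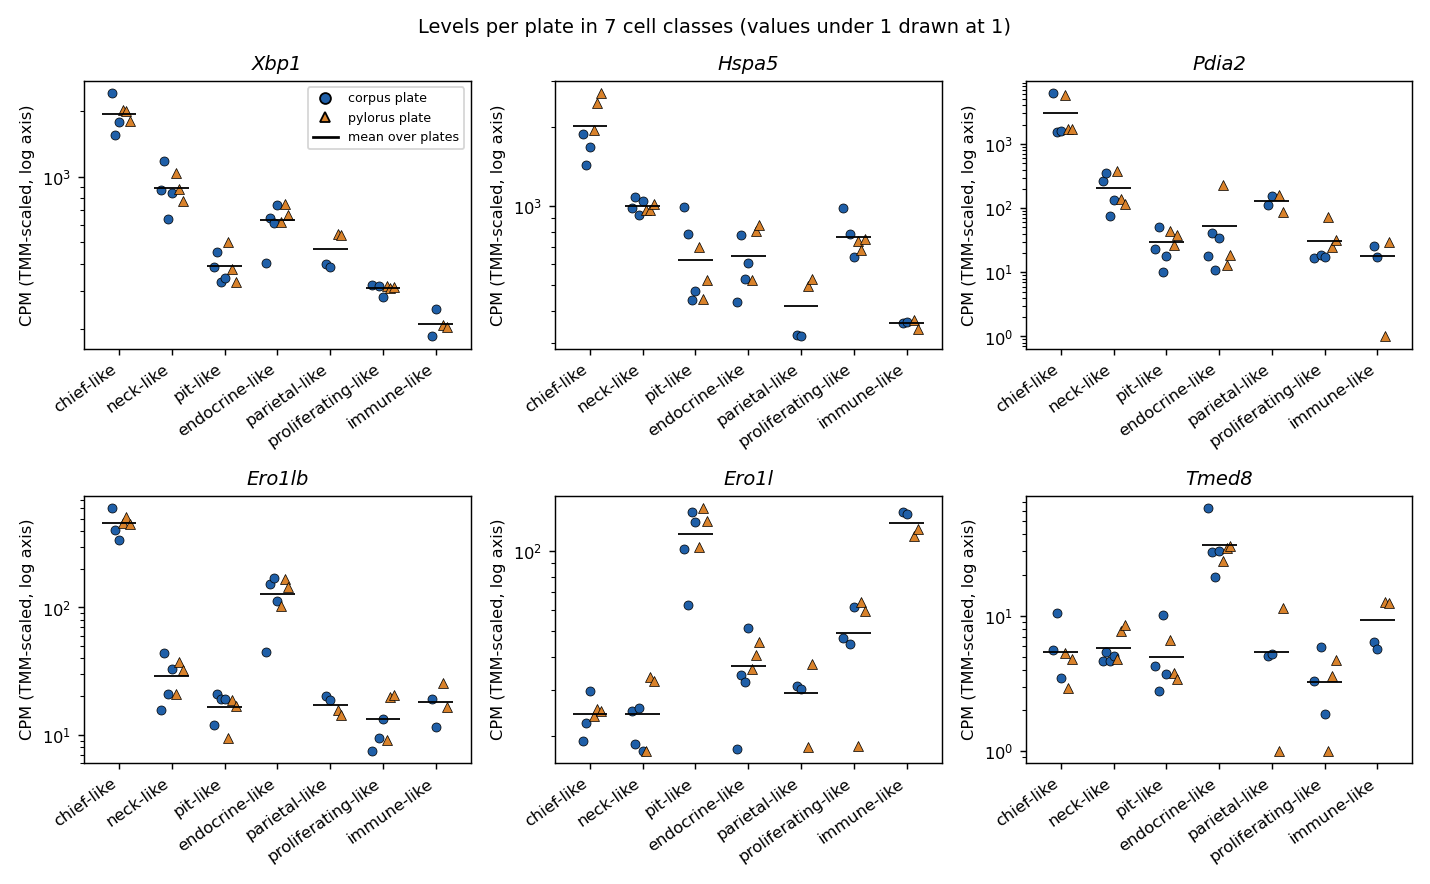
Levels of 6 genes per plate (CPM, TMM-scaled, log axis) in 7 cell classes, with circles for corpus plates, triangles for pylorus plates, lines at the mean and values under 1 drawn at 1. Ero1lb is highest in chief-like cells (341 to 606 CPM) and Ero1l in pit-like (62.5 to 146 CPM) and immune-like cells (114 to 141 CPM), and Pdia2 falls into 2 levels among chief-like plates.

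Other disulfide isomerases had their highest mean in neck-like rather than chief-like cells, with plates that overlapped those of other classes. Pdia3, which works with the lectin chaperones on glycoproteins, was at 407 CPM ± 83.7 (n = 7) in neck-like and 270 ± 66.5 (n = 6) in chief-like cells. The neck-like difference was 0.89 (SE 0.10, adjusted p = 1.671e-09), and neck-like plates, from 311 to 569 CPM, overlapped chief-like plates, from 164 to 326 CPM. Pdia4 and Pdia5 differed by 1.16 (SE 0.24, adjusted p = 0.0002401) and 1.20 (SE 0.19, adjusted p = 2.702e-06) in neck-like cells at averages of 39.2 and 52.1 CPM. The next highest mean of Pdia4 was 26.2 CPM in chief-like cells, whose plates overlapped the neck-like ones. Pdia5 averaged 50.3 CPM in proliferating-like cells, where plates reached 87.3 CPM against 68.4 CPM in neck-like cells. Txndc5 averaged 110 CPM in neck-like, 110 CPM in pit-like and 104 CPM in chief-like cells, and passed as higher in these 3 classes and in proliferating-like cells (0.43). Pdia6 followed the chief-like pattern instead, with 873 CPM ± 206 (n = 6) against 496 ± 69.5 (n = 7) in neck-like cells (chief-like difference 1.52, SE 0.09, adjusted p = 7.198e-18).

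Among the p24 cargo receptors, the largest chief-like differences were those of Tmed6 and Tmed3. Tmed6 was at 1851 CPM ± 751 (n = 6), with plates from 1296 to 2833 around a median of 1428, and averaged 16.6 to 85.8 CPM in the other classes. Its difference of 5.65 (SE 0.17, adjusted p = 1.213e-26) was the largest of the 46 genes. As for Pdia2, corpus replicate 2 (2833 CPM) and pylorus replicate 1 (2799 CPM) were the high plates, and over the 4 similar plates alone the difference was 5.40. Tmed3 was at 898 CPM ± 112 (n = 6), from 781 to 1057 CPM, against 240 ± 38.1 (n = 7) in neck-like cells and 64.3 to 177 CPM on average in the rest (difference 3.02, SE 0.12, adjusted p = 2.251e-22). Tmed10, a widely expressed p24 protein, was at 692 CPM ± 97 (n = 6) in chief-like cells, from 572 to 842 CPM, against 425 ± 69 (n = 7) in neck-like cells (difference 1.33, SE 0.08, adjusted p = 5.260e-17). Tmed8 was at 33.2 CPM ± 13.9 (n = 7) in endocrine-like cells, from 19.3 to 62.9 CPM, and no plate of another class came above 12.7 CPM (endocrine-like difference 2.27, SE 0.26, adjusted p = 6.618e-10). Tmed5 averaged 126 CPM in proliferating-like and 121 CPM in pit-like cells and 37.6 to 70.2 CPM elsewhere. It passed as higher in both, by 0.91 and 0.83.

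In neck-like cells, 25 of the 46 genes were higher than the mean of the other classes and 3 were lower, against 15.7% and 13.3% of all genes, and the median difference was 0.38 (0.06 over all genes). The lower genes were Ero1l (-0.95), Ero1lb (-0.44) and Spcs3 (-0.31). Pdia5, Pdia2 (1.20), Pdia4 and Txndc5 (0.93) had the largest positive differences. Pit-like cells had 11 higher and 13 lower genes, against 22.7% and 21.4% of all genes. Besides Ero1l, the higher ones included Txndc5 (0.96), Tmed5 (0.83) and Tmed4 (0.82), and the lower ones Tmed6 (-1.94), Pdia2 (-1.89), Ero1lb (-1.26) and Tmed1 (-1.16). With library size scaling, 4 genes were higher and 15 lower in pit-like cells. Without the immune-like class in the mean, the pit-like split was 5 higher and 14 lower.

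Endocrine-like cells had 10 higher and 14 lower genes, against 25.1% and 31.9% of all genes. The higher ones were led by Tmed8, Ero1lb, Dnajb9 (1.51, SE 0.20, adjusted p = 4.057e-08) and Sec61a2. Dnajb9, a BiP cofactor that is raised by the XBP1 branch of the stress response, was at 91 CPM ± 24.9 (n = 7) in endocrine-like and 70.8 ± 33.5 (n = 6) in chief-like cells, whose plates overlapped. The lower genes included Pdia2 (-1.77), Tmed5 (-1.09), Tmed9 (-0.68) and Ssr3 (-0.63). Direction in this class depended on the scaling. With library size scaling 25 genes were higher and 3 lower, the median of all genes moved from -0.10 to 0.26, and Calr, Pdia6, Rpn1 and Tmed2 turned from lower to higher. Without the immune-like class in the mean, 6 genes were higher and 22 lower.

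Parietal-like cells were lower for 32 of the 46 genes and higher for 3, against 20.7% and 18.2% of all genes, with a median of -0.68. The largest negative differences were those of Sec11c (-1.96), Sdf2l1 (-1.92), Pdia5 (-1.71) and Tmed3 (-1.37). The higher ones were Pdia2, Tmed1 (0.99) and Sec62 (0.25, SE 0.10, adjusted p = 0.04154). With library size scaling Sec62 was at -0.10, and 40 genes were lower and 0 higher. The Sec62 call was also lost under 7 others of its 16 alternatives, and its difference ran from 0.13 to 0.30 with 1 plate left out. Without the immune-like class in the mean, 2 genes were higher and 38 lower in parietal-like cells. Immune-like cells were lower for 37 genes and higher for 2, Ero1l and Sec11c (0.48), against 41.6% and 18.6% of all genes. Their largest negative differences were those of Pdia2 (-2.57), Tmed6 (-1.85), Txndc5 (-1.70) and Tmed4 (-1.70). Immune-like cells were shallow, with a median of 3757 UMIs and 14 of the 46 genes detected per cell, against 39 in chief-like cells. Proliferating-like cells had 8 higher and 12 lower genes, against 22.2% and 20.3% of all genes, and 23 higher and 9 lower with library size scaling. Without the immune-like class in the mean, 4 were higher and 18 lower there. Pdia5 (1.06), Tmed5, Hsp90b1 (0.44) and Txndc5 (0.43) were higher, and Pdia2 (-1.75), Tmed6 (-1.58), Ero1lb (-1.55) and Dnajb9 (-1.42) lower. With library size scaling the split in immune-like cells was 4 higher and 25 lower.

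Chief-like, neck-like and pit-like cells were also compared in 3 pairs. Between chief-like and pit-like cells, 31 genes were higher in chief-like cells and 3 lower, against 17.5% and 19.2% of all genes. Tmed6 (6.50), Pdia2 (6.40), Ero1lb (4.52) and Tmed3 (3.16) had the largest differences, and Ero1l (-2.17), Tmed5 (-0.80) and Sec11a (-0.43) were the lower ones. With library size scaling 25 were higher and 7 lower, the median of all genes was -0.39, and Calr and Spcs1 turned. Over all genes, 4655 then passed in either direction, in place of 3980. Between chief-like and neck-like cells, 31 were higher and 3 lower, against 10.2% and 9.89% of all genes. Tmed6 (4.37), Ero1lb (3.81), Pdia2 (3.76) and Ssr4 (2.10) led, and Pdia5 (-0.84), Pdia3 (-0.62) and Sec11a (-0.47) were lower. Its split depended on the scaling: with library size scaling, 14 genes were higher and 14 lower, and the median of all genes was -0.60. Calr, Hsp90b1, Rpn1, Sec61g, Spcs1, Tmed2 and Tmed9 turned from higher to lower. Over all genes, 4884 then passed in either direction, in place of 2175. Between neck-like and pit-like cells, 18 were higher and 2 lower, against 12.7% and 13.1% of all genes. Pdia2 (2.64), Tmed6 (2.13), Tmed3 (1.30) and Xbp1 (1.18) were the largest, and Ero1l (-2.16) and Tmed5 (-0.75) were lower.

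Genes of the same pathway outside the 46 were given by fixed lists. Of all genes tested, 17.2% were higher and 15.4% lower in chief-like cells. In neck-like cells these shares were 15.7% and 13.3%. In chief-like cells, all 12 genes of ER-associated degradation were higher, including Derl3 (5.05), Edem2 (2.78) and Herpud1 (2.71). Of 20 genes for export to the Golgi 17 were higher, including the retrieval receptor Kdelr3 (2.73), Mcfd2 (1.92) and its cargo receptor partner Lman1 (1.59). Of 15 tested genes for other folding enzymes 12 were higher, led by the prolyl isomerase Fkbp11 (3.81), the disulfide isomerase P4hb (1.94) and the cyclophilin Ppib (1.89). Of 8 tested genes for the signal recognition particle and its receptor 7 were higher, including Srp68 (1.75) and Srp9 (1.72). Of the other oligosaccharyltransferase subunits 7 of 9 were higher, including Krtcap2 (1.59) and Magt1 (1.57), and of translocon accessory genes 3 of 5, led by Serp1 (2.69). None of these lists held a gene that passed as lower. Of 12 tested stress sensors and factors 8 were higher, led by Bhlha15 (5.00), also called MIST1, the factor that shapes secretory architecture in zymogenic cells. In neck-like cells 4 of these 12 were higher and 0 lower, including Creb3l4 (4.11), Ern2 (3.68), the stress sensor of mucus-secreting epithelia, and Creb3l1 (2.24), while 4 of 12 degradation genes and 12 of 20 export genes were higher.

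Plasma cells carry the same machinery, and so does the pancreatic acinus, so their markers were measured in the chief-like sums. Of 10 plasma cell markers, 6 were in the tables and 4 had a UMI in chief-like cells. Their summed level was 89.4 to 289 CPM of all UMIs across chief-like plates, against 153 to 189 CPM in pit-like and 104 to 155 CPM in neck-like cells. The plasma cell genes Mzb1 and Tnfrsf17 were at 0 UMIs and Igj at 1 UMI over the chief-like cells of the 6 plates, and Derl3, at 67.1 to 259 CPM, made up most of the list there. Derl3 is also in the degradation list above. Pancreatic acinar markers summed to 126 to 618 CPM in chief-like cells, most of it from Try4 (237 CPM on average), with Cpa1 at 0 UMIs. They summed to 164 to 4808 CPM in endocrine-like cells, where Cel gave 1890 of 1933 CPM on average and Cpa1 was at 0 UMIs. Cel was also the first leading gene of endocrine-like cluster 12. Of 12 immediate early and heat shock genes that mark dissociation stress, 6 were higher in chief-like cells, including Atf3 (1.75) and Jun (1.21). Another 3 were lower, including Ier3 (-1.42) and Fos (-0.84), against 17.2% and 15.4% of all genes. In neck-like cells 6 were higher and 1 was lower, against 15.7% and 13.3% of all genes. The part of these transcripts in the levels of ER genes was not tested.

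Between regions, no gene of the 46 passed the test in the sums over all kept cells of the 7 plates. In such sums, fewer cells of a type and less RNA per cell cannot be told apart. Each region fit was TMM-scaled over its own sums, so its CPM can be compared only within that fit and not with the class levels above. By limma, 0 of the 46 genes passed (0 also at an unadjusted p under 0.05), as did 2 of 12003 genes tested (0.0167%). The log2 differences, pylorus minus corpus, ranged from -0.30 to 0.64, with a median of 0.08. The largest was that of Ero1lb (0.64, SE 0.60). Its corpus plates spread from 19.1 to 182 CPM and its pylorus plates from 87.7 to 105 CPM. Pdia2 (0.60, SE 0.82) spread from 133 to 1330 CPM over corpus plates alone. Chief-like cells made up 1.8%, 20.8%, 9.97% and 7.49% of the kept cells on corpus replicates 1 to 4 and 15.2%, 16.5% and 16.5% on pylorus replicates 1 to 3. The plates of the regions did not overlap for 2 of the 46 genes, Sec61b and Pdia3, against 3.21% of all genes.

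**Figure D5:**
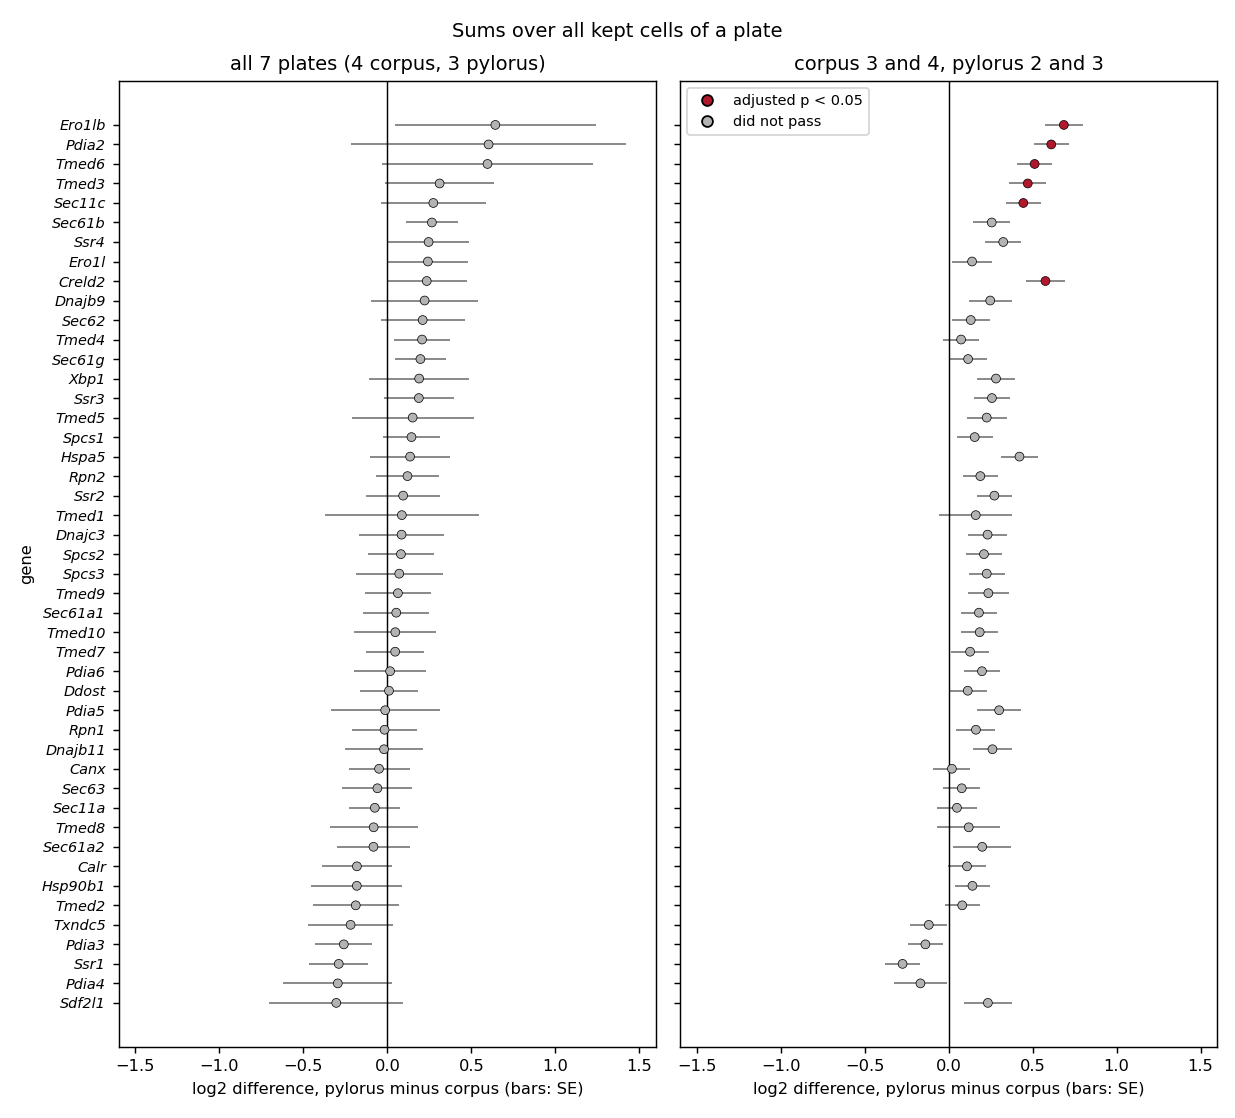
Log2 difference, pylorus minus corpus (x axis, bars are SE), of each of the 46 genes (y axis, same order in both panels) in sums over all kept cells, for all 7 plates and for corpus replicates 3 and 4 with pylorus replicates 2 and 3. None passes over 7 plates, and 6 pass over the 4 plates.

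Over the 4 similar plates alone, 6 of the 46 genes passed as higher in pylorus, against 3.62% of all genes in either direction. They were Ero1lb (0.69), Pdia2 (0.61), Creld2 (0.58), Tmed6 (0.51), Tmed3 (0.47) and Sec11c (0.44). Creld2, for example, was at 53.8 CPM ± 2.86 (n = 2) in corpus and 81.2 ± 5.83 (n = 2) in pylorus (SE 0.11, adjusted p = 0.01211). Of the 7 classes compared, all 6 had their highest mean level in chief-like cells. Chief-like cells made up 9.97% and 7.49% of the kept cells on these corpus plates against 16.5% on each pylorus plate. Among these 7 classes, Ero1lb had its next highest level in endocrine-like cells. In tuft-like cells, left out of that comparison, Ero1lb was at 384 and 501 CPM of all UMIs on 2 plates. Other marker lists moved in the same fit: 6 of 10 parietal markers were lower and 1 higher in pylorus, while 5 of 15 tested endocrine, 3 of 14 proliferating and 5 of 12 dissociation stress genes were higher and 0 lower. Of 6 tested chief markers, 0 passed. Their part in these differences was not tested. Within chief-like cells of the same 4 plates, 2 genes passed as higher in pylorus, against 0.812% of all genes. Hspa5 was at 1032 CPM ± 105 (n = 2) in corpus and 1680 ± 98.8 (n = 2) in pylorus (0.70, SE 0.14, adjusted p = 0.002924 in limma), and Creld2 at 125 ± 13.4 and 208 ± 26.6 (0.72, SE 0.16, adjusted p = 0.02013 in limma). Corpus replicate 2 and pylorus replicate 1, left out here, did not repeat these differences. On the scale of the class comparison, Creld2 was at 345 CPM on the former and 153 CPM on the latter, and Hspa5 at 1888 and 1955 CPM. In pit-like cells Pdia2 passed (1.13, SE 0.30, adjusted p = 0.01894) at 11.8 CPM ± 4.48 against 28 ± 7.39, against 1.89% of all genes. On the scale of the class comparison, the left-out corpus replicates 1 and 2 were at 22.89 and 51.38 CPM and pylorus replicate 1 at 43.43 CPM. Pylorus replicates 2 and 3 were at 27.06 and 38.75 CPM on that scale, so corpus replicate 2 was above both. In neck-like cells 0 of 45 passed (5 at an unadjusted p under 0.05), against 0.690% of all genes. With 2 plates a side, these fits had 2 residual degrees of freedom and lean on the spread pooled over genes.

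Within classes over all plates, the only calls were in parietal-like cells, which only these 4 plates held in number. There, 2 of 40 genes passed, against 7.13% of all genes. Hspa5 was at 249 CPM on both corpus plates (248.7 and 249.2) and averaged 398 CPM ± 7.62 (n = 2) in pylorus (0.67, SE 0.15, adjusted p = 0.01141). Ssr3 was at 60.8 CPM ± 6.69 (n = 2) in corpus and 99 ± 4.68 (n = 2) in pylorus (0.69, SE 0.20, adjusted p = 0.04435). Neither passed without corpus replicate 3 (adjusted p = 0.178 for Hspa5 and 0.226 for Ssr3) or without corpus replicate 4 (adjusted p = 0.185 for Hspa5), each of which leaves a single corpus plate. The differences were then 0.65 and 0.65 for Hspa5, and 0.78 and 0.56 for Ssr3. In chief-like cells 0 of 43 genes passed (1 at an unadjusted p under 0.05; 0% of all genes passed), in neck-like cells 0 of 44 (1; 0.0481%), in pit-like cells 0 of 44 (0; 0%), in endocrine-like cells 0 of 44 (1; 0%), in proliferating-like cells 0 of 43 (1; 0%) and in immune-like cells 0 of 30 (1; 0%). The region difference itself was not shown to vary between classes: for chief-like against pit-like, chief-like against neck-like and neck-like against pit-like cells, 0 of 44 genes passed a test of the interaction in limma (1 in each at an unadjusted p under 0.05), as did 0% of all genes. Where 3 plates face 3 or 4, only differences that are large against the spread between plates can pass, and smaller ones were not detectable here.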

How the data were processed

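Plates were made by SORT-seq with CEL-seq2 chemistry, per the labels' protocols, and mm9 is the genome build in the submitters' processing notes. No aligner or counter is named in the sources used here. The deposited tables give whole-number UMI counts per gene and well, up to 4095, and the highest value of any of the 46 genes was 538. Pgc had 1079913 UMIs over the 283 chief-like cells, and whether such counts are capped at 4095 was not tested. A cap would lower the UMI totals from which shares and CPM were taken, and the Pgc levels themselves. Reads of near-identical gene copies may be split between them. The 46 genes and all gene lists were chosen with earlier results of these data known.

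Wells under 1000 UMIs were dropped, and doublets were not called because wells were filled by a sorter. Clustering used scanpy 1.11.5 (2000 variable genes without the 46 and mitochondrial genes, 30 principal components, 15 neighbours, Leiden resolution 1.0). Clusters were named by the marker list with the largest mean log2 fold (at least 0.5, with 3 or more markers each detected in over 25% of cells), unless another list held more of the 10 leading genes. The pseudocount of 50 CPM for leading genes was set after the clusters had been seen.

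A count model was planned, but the check of units could not read the well columns as counts, so the planned fallback was used: limma 3.58.1 in R 4.3.3 with a mean trend on log2(CPM + 2) after TMM scaling. Sums needed at least 10 cells of a class on a plate, and genes needed about 10 counts in enough sums. Class fits held 41 sums with plate as a term. The region fit over all kept cells and the chief-like comparison were run on simulated counts. Apart from planted changes, those counts had a shared mean profile and a shared spread, without plate effects. They are simpler than these data, and the other fits were not run on simulated counts. Genes are named by role, by their size of change among those that passed (up to 4 a direction), and up to 3 from each pathway list. Promoters are RefSeq's on GRCm38.p6, and no mm9 coordinate is used.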

Additional observations from a re-analysis of the deposited data

Results flagged for a closer look

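Among 120 sets of 4 to 7 plates, each for 1 measure in 1 class, 12 held a plate that stood apart from the others of its class by Dixon's test, where chance flags about 1 set in 20. Dnajb9 was at 137.6 CPM in chief-like and 4.594 CPM in proliferating-like cells of pylorus replicate 1, at 90.28 CPM in neck-like cells of corpus replicate 1 and at 34.43 CPM in immune-like cells of corpus replicate 4. Pdia2 was at 230.7 CPM in endocrine-like and 73.5 CPM in proliferating-like cells of pylorus replicate 1. Pdia3 was at 419.3 CPM in pit-like cells of corpus replicate 2 and at 200.8 CPM in immune-like cells of corpus replicate 4. Tmed8 was at 10.54 CPM in chief-like cells of corpus replicate 3 and at 62.86 CPM in endocrine-like cells of corpus replicate 1. Xbp1 was at 404.1 CPM in endocrine-like cells of corpus replicate 1 and at 279.9 CPM in proliferating-like cells of corpus replicate 4.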

How the results depend on the processing

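The number of the 46 genes called in each class comparison stayed within 1.5 times its value under every alternative run except 1: with library size scaling, 32 genes passed in proliferating-like cells in place of 20. With that scaling, calls over all genes numbered 4581 in pit-like cells (4793 in the main fit) and 6363 in endocrine-like cells (6190). They numbered 4757 in parietal-like (4226), 5125 in proliferating-like (4616) and 6317 in immune-like cells (6531). Without the immune-like class they numbered 4671 in pit-like, 6553 in endocrine-like, 4257 in parietal-like and 4600 in proliferating-like cells. Leaving out 1 plate gave 37 to 38 calls for chief-like, 24 to 27 for neck-like and 18 to 24 for pit-like cells. Directions turned with library size scaling for Calr (-0.04) and Canx (-0.38) in chief-like and Sec62 (-0.10) in parietal-like cells, and in 16 other pairs of a gene and a comparison. Between regions, the 4 similar plates alone gave 6 calls in place of 0 over all cells, 2 in place of 0 in chief-like and 1 in place of 0 in pit-like cells. Parietal-like calls, 2 in number, were 13 with library size scaling, 1 with a pseudocount of 0.5, 1 without the filter on low counts, 5 with voom weights, and 0 to 7 without 1 plate. Share of UMIs moved by more than 1 SD without mitochondrial genes in the total, to 1.24% in neck-like, 0.629% in parietal-like, 0.984% in proliferating-like and 0.635% in immune-like cells. Same-numbered plates did not deviate together in every pair (r of 0.452, -0.106 and 0.469). Corpus replicate 4 and pylorus replicate 3, with different numbers, reached 0.458. Corpus replicate 1 and pylorus replicate 1 had the lowest median depths (6898.5 and 8240 UMIs) and the highest spike-in shares (4.27% and 6.55%). These values cannot tell whether plates of a number share an animal or a batch, which was not tested. With the replicate number as a block, 0 genes passed over all cells and in chief-like, neck-like, pit-like, endocrine-like and proliferating-like cells. The count models listed as alternatives were not run, since the tables did not pass as counts. The alternative without the immune-like class was chosen after seeing the data. The sums of the classes held from 72965 UMIs (endocrine-like, corpus replicate 1) to 2238946 (parietal-like, corpus replicate 3).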

Other observations

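Tuft-like cells, chemosensory cells marked by Dclk1 and Trpm5, were too few for the class comparison, with at least 10 cells on only 2 plates. In them the 46 genes took 0.727% and 0.752% of UMIs. Ero1lb, the oxidase that was highest in chief-like cells among the 7 classes compared, was at 384 and 501 CPM of all UMIs in tuft-like cells (239 UMIs over the 2 plates). On the same scale its chief-like plates spanned 226 to 400 CPM and its endocrine-like plates 68.5 to 213 CPM. Pdia2 was at 8.26 and 24 CPM there (9 UMIs), against 994 to 4086 CPM over chief-like plates. Ero1l was at 30.9 and 37.2 CPM. No test was made over these 2 plates.

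In the unnamed cluster of 224 cells, led by Lgals2 and Dpcr1, the 46 genes took 0.666% to 0.749% of UMIs over 4 plates. Ero1l was at 47.8 to 64.4 CPM of all UMIs in that cluster, against 69.2 to 126 CPM in pit-like cells, and Ero1lb at 14 to 19.2 CPM. These values are a description of cells that matched no marker list.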
